A study of Mus musculus with 3 samples.

Results

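The 33 genes described here encode the stress transcription factor ATF4, related factors and regulators, enzymes of amino acid and one-carbon metabolism that ATF4 is known to control, and amino acid transporters. They were taken from a named list of genes grouped by function, with no measured value in its rule, though earlier results of these data were known when it was drawn up, and all 33 were found among the 55211 genes measured in every sample. The samples were 3 separate cultures of Ba/F3, a mouse haematopoietic cell line that depends on interleukin-3 (IL-3). The cells carried no labelled genetic change and were grown in vitro in RPMI with fetal calf serum, penicillin and streptomycin, with recombinant murine IL-3 supplied to all cultures. They form 1 group, so the data hold levels and the spread between cultures, and no contrast in which a response to ATF4 or to amino acid supply could be measured. The study as a whole concerns ITPK1 and the killing of tumour cells by neutrophils through IgA.

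ATF4 is a basic leucine zipper factor of the integrated stress response. When 1 of several kinases phosphorylates the initiation factor eIF2, most translation slows while upstream reading frames allow the Atf4 message to be translated more, so the amount of this mRNA does not give the amount of the protein. The protein raises transcription of genes for the synthesis and import of amino acids, and proliferating cells, among them blood cell lines, draw on these genes for protein and nucleotide synthesis.

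Cultures 1, 2 and 3 gave 32044889, 33880292 and 37180883 counted reads. Levels are given as CPM, the reads of a gene scaled to the library total, or, wherever genes are compared with each other, as TPM, which also divides by the joined exon length of the gene. Values after ± are SDs over the cultures (n = 3). The limit that a count of 0 allows, 3 reads, was worth 0.0936, 0.0885 and 0.0807 CPM and covers counting error only. For mitochondrially encoded RNA the share of reads was 1.68%, 1.31% and 1.04% in the same order, with Wilson 95% intervals of 1.67 to 1.68, 1.31 to 1.32 and 1.04 to 1.04%. Cultures 1 and 3 differed most over all genes, with a mean chi-square of 20.07 per gene, beside 10.16 for cultures 1 and 2 and 6.46 for cultures 2 and 3. The 5 markers of an IL-3-dependent haematopoietic line (Ptprc, Csf2rb, Il3ra, Csf2rb2 and Gata2) were all detected, and their summed level was 1342 to 1374 TPM. Of 6 B lineage markers only Cd79a and Cd79b were detected (summed level 48.5 to 53.4 TPM), and Ebf1 and Rag1 had no read. None of 3 fibroblast markers (0.393 to 0.554 TPM summed) or 3 epithelial markers (0.207 to 0.429 TPM summed) was detected. All 3 macrophage markers (267 to 279 TPM summed) and 1 of 2 endothelial markers (86.4 to 91.9 TPM summed, nearly all Pecam1) were detected. Most of the macrophage sum was Cd68 (244 ± 5.94 TPM), with Adgre1 at 27.7 ± 1.67 TPM and Csf1r at only 1.15 ± 0.119 TPM.

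Most of the members were expressed. Of the 33 members, 27 were detected, meaning 1 CPM or more in all cultures, beside 19.9% of all genes and 45.9% of the 21963 protein-coding genes. Together the members took 0.304%, 0.305% and 0.308% of the reads in cultures 1, 2 and 3, with Wilson 95% intervals of 0.302 to 0.305, 0.304 to 0.307 and 0.306 to 0.310%, which cover counting error only. The median over all 33 members was 74.4 CPM, or 62.1 TPM. The median of the 27 detected members was 76.1 TPM, beside 30.1 TPM for all detected genes. By TPM, 8 members stood in the upper 10% of detected genes, 16 in the upper 25% and 4 in the lower 25%. With the longest transcript as length these counts were 5, 17 and 2, as Mthfd1l, Slc3a2 and Slc7a5 left the upper 10% and Ddit3 and Slc6a9 the lower 25%. Phgdh, Shmt2, Glud1 and Atf4 were the highest members by joined exon length, Psat1 stood above Glud1 and Atf4 with the longest transcript, and Psph was the lowest detected member with either. Chac1, Vldlr and Cth had no read in any culture, as did 34.7% of protein-coding genes, and Aldh1l2, Cbs and Slc7a3 had 3, 3 and 4 reads over all cultures.

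**Figure D1:**
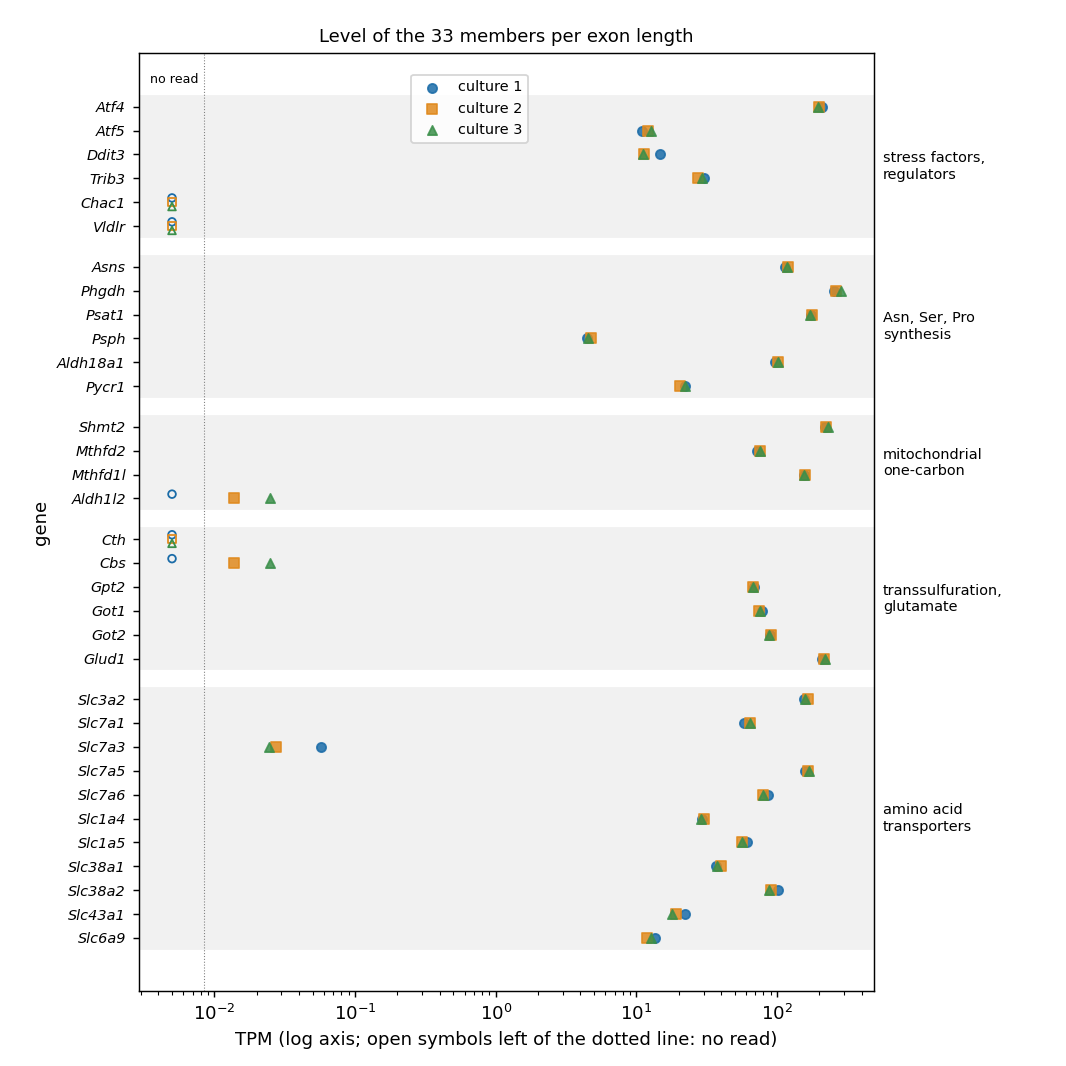
Level of each of the 33 members in TPM (log axis), grouped by role, with 1 symbol per culture and open symbols left of the dotted line for cultures without a read. The 27 detected members spread from 4.58 TPM (Psph) to 266 TPM (Phgdh), far more than the cultures differ for any of them, and the other 6 lie near or at no read.

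Among the stress factors, Atf4 itself was abundant and its relatives were not. Atf4 (ENSMUSG00000042406, chromosome 15, 80255184 to 80257541, plus strand, GRCm38) was read at 142, 133 and 132 CPM in cultures 1, 2 and 3, or 200.1 ± 8.63 TPM, the 92.9 percentile of detected genes. Culture 1 was the highest and cultures 2 and 3 lay close together. Atf5, a related factor also known to be controlled by upstream reading frames (chromosome 7, 44812256 to 44816658, minus strand), stood at 6.24, 6.82 and 7.32 CPM, or 11.9 ± 0.887 TPM. It shares 82 exon bases on the opposite strand with Nup62, which had 3467, 3714 and 4214 reads, so its level and its ratio to Atf4 are uncertain for want of the strand setting of the counting. The TPM of Atf4 was 19.2, 16.4 and 15.3 times that of Atf5 in the 3 cultures, a mean of 17.0 ± 2.03. Ddit3, which encodes the stress factor CHOP (chromosome 10, 127290774 to 127296288, plus strand), lay at 7.18, 5.58 and 5.57 CPM, or 12.4 ± 1.91 TPM, with culture 1 apart from the other two. It shares 68 exon bases on the opposite strand with Mars, which had 3097, 3234 and 3564 reads, so its level is uncertain in the same way. Trib3, which encodes a pseudokinase that binds ATF4 and CHOP (chromosome 2, 152337422 to 152344032, minus strand), stood at 18.3, 16.7 and 17.9 CPM, or 28.8 ± 1.28 TPM. Chac1, which encodes a glutathione-degrading enzyme, and Vldlr, a lipoprotein receptor gene, were the members of this group without a read. Of the 4 detected members of this group, 3 were therefore below the median of all detected genes and Atf4 was far above it.

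The reference message of Atf4 has a leader (the 5′ UTR) of 594 bases with 3 upstream ATGs, and 1 of the reading frames they open runs past the start of the coding sequence. That of Atf5 has 373 bases with 2 upstream ATGs and likewise 1 overlapping frame. The arrangement is the one known for translational control of both genes. It was not common to the members. An upstream ATG was found in 15 of 33 (45.5%), beside 54.4% of 20553 coding genes, and an overlapping frame in 4 of 33 (12.1%: Atf4, Atf5, Psat1 and Slc43a1), beside 17.8%. Ddit3 had 2 upstream ATGs and Trib3 and Chac1 had 0. These counts describe GENCODE transcripts and say nothing of translation in these cells, which was not measured.

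Genes for the synthesis of serine, asparagine and proline were all detected, 6 of 6, with a median of 109 TPM. Phgdh, which encodes the dehydrogenase that opens serine synthesis (chromosome 3, 98313170 to 98339990, minus strand), was the highest of the 33 members. It was read at 180.0, 186 and 203 CPM in cultures 1, 2 and 3, or 266 ± 15.6 TPM, the 95.2 percentile of detected genes, and culture 3 was above the other two. Psat1, the aminotransferase of the second step (chromosome 19, 15904678 to 15947337, minus strand), stood at 212, 215 and 210.4 CPM, or 174 ± 3.13 TPM, with all cultures close. Psph, the phosphatase of the last step (chromosome 5, 129765558 to 129787449, minus strand), stood at only 5.55, 5.84 and 5.70 CPM, or 4.58 ± 0.127 TPM, the 8.89 percentile. The 3 genes of this linear route were thus read at very unequal levels. The TPM of Phgdh was 1.53 ± 0.110 times that of Psat1, which fell to 1.23 when the longest transcript was used as the length. The TPM of Psat1 was 38.8, 37.5 and 37.5 times that of Psph, a mean of 37.9 ± 0.718, and 41.0 with the longest transcript. Phgdh has 9 processed pseudogenes with stretches over 95% identical to it, each read 0 to 12 times per culture. Psph shares 452 exon bases on the opposite strand with Cct6a, which had 9029, 9772 and 11086 reads, so both levels are uncertain to the extent that the counting split such reads.

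Asns, which encodes asparagine synthetase (chromosome 6, 7675169 to 7693254, minus strand), was read at 89.0, 93.7 and 92.7 CPM, or 117 ± 3.14 TPM. For proline, Aldh18a1, which encodes the synthase of the first steps (chromosome 19, 40550257 to 40588463, minus strand), stood at 114, 118 and 121 CPM, or 100.4 ± 2.72 TPM. Pycr1, one of the reductases of the last step (chromosome 11, 120635712 to 120643769, minus strand), stood at 24.9, 23.1 and 25.1 CPM, or 21.5 ± 0.901 TPM. By TPM, Aldh18a1 was 4.67 ± 0.272 times Pycr1.

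One-carbon metabolism inside mitochondria takes the hydroxymethyl group of serine to formate, which leaves for nucleotide synthesis. The 3 members of that route to formate were detected, and the member of the branch that oxidises formyl groups to carbon dioxide was not. Shmt2, the mitochondrial serine hydroxymethyltransferase gene (chromosome 10, 127517123 to 127522444, minus strand), was read at 196, 197 and 207 CPM, or 224 ± 5.44 TPM. Mthfd2, the dehydrogenase and cyclohydrolase gene (chromosome 6, 83305691 to 83325908, minus strand), stood at 72.4, 75.1 and 75.8 CPM, or 74.3 ± 1.65 TPM. Mthfd1l, which releases formate (chromosome 10, 3973118 to 4167081, plus strand), lay at 196, 202 and 199 CPM, or 156 ± 2.65 TPM. The middle step was therefore the lowest of the route: the TPM of Mthfd2 was 0.476 ± 0.00678 times that of Mthfd1l (0.662 with the longest transcript). Aldh1l2, the mitochondrial formyl-tetrahydrofolate dehydrogenase gene (chromosome 10, 83487450 to 83534140, minus strand), had 0, 1 and 2 reads. It shares 1056 exon bases on the opposite strand with D10Wsu102e, which had 3106, 3329 and 3354 reads.

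The mitochondrial genes were compared with their counterparts. Shmt2 was 3.26, 3.25 and 3.31 times cytosolic Shmt1 by TPM, a mean of 3.27 ± 0.0325. Mthfd1, the cytosolic enzyme of several steps, was 0.727 ± 0.0112 times Mthfd1l. The paralogue Mthfd2l had no read in any culture, so that Mthfd2 was at least 1474-fold higher by TPM, with 3 reads per library taken as the limit for Mthfd2l. Aldh1l1, the cytosolic counterpart of Aldh1l2, was not detected either, at 1.81, 0.915 and 1.13 CPM.

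Of the genes that make cysteine from homocysteine, neither was detected. Cth, the cystathionine lyase gene (chromosome 3, 157894248 to 157925077, minus strand), had no read, and Cbs, the synthase gene (chromosome 17, 31608894 to 31637238, minus strand), had 0, 1 and 2 reads. All 4 glutamate enzymes were detected. Glud1, the glutamate dehydrogenase gene (chromosome 14, 34310727 to 34345265, plus strand), led at 249.7, 258 and 266 CPM, or 213 ± 5.97 TPM. Gpt2, the mitochondrial alanine aminotransferase gene (chromosome 8, 85492576 to 85527560, plus strand), was read at 110.0, 109 and 109.8 CPM, or 67.6 ± 0.385 TPM, with the lowest ratio between cultures among the detected members. By TPM it was 4.82, 4.86 and 4.79 times its cytosolic counterpart Gpt, and 7.13 times with the longest transcript. For the aspartate aminotransferases, mitochondrial Got2 (chromosome 8, 95864134 to 95888547, minus strand) stood at 124, 125 and 123 CPM and cytosolic Got1 (chromosome 19, 43499752 to 43524605, minus strand) at 56.8, 54.0 and 55.7 CPM. Per length they were closer, at 89.4 ± 1.38 and 76.1 ± 1.79 TPM, a ratio of 1.18 ± 0.0371 that rose to 1.82 with the longest transcript. The mitochondrial enzyme gene was thus the higher one for serine hydroxymethyltransferase, alanine and aspartate aminotransferase in every culture, with either length.

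Of the 11 transporters, 10 were detected, with a median of 60.1 TPM. Slc3a2 encodes CD98, the heavy chain that carries several light chains to the membrane (chromosome 19, 8706882 to 8723369, minus strand), and was read at 158, 166 and 162 CPM, or 159.9 ± 4.32 TPM. Slc7a5, which encodes the leucine-transporting light chain LAT1 (chromosome 8, 121881150 to 121907694, minus strand), stood at 168, 177 and 182 CPM, or 165 ± 5.91 TPM. The heavy and light chain were at nearly equal level, 0.989, 0.989 and 0.934 in ratio by TPM, and which chain was higher depended on the length used (1.15 with the longest transcript). Slc7a6, another light chain, of the y+L type (chromosome 8, 106168857 to 106198706, plus strand), lay at 113, 103 and 104 CPM, or 81.4 ± 4.28 TPM. Slc7a5 was 1.83, 2.11 and 2.15 times Slc7a6 by TPM, lowest in culture 1. Counting all 6 known light chain partners of CD98, their summed level was 253, 253 and 257 TPM, 1.59 ± 0.0488 times Slc3a2 (1.42 with the longest transcript). Slc7a5 made up 64.8 ± 1.99% of that sum and Slc7a6 32.0 ± 1.83%. Slc7a11, the light chain of the cystine and glutamate exchanger and not a member, was detected at 6.33, 6.52 and 6.91 CPM, or 1.65 ± 0.0649 TPM.

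For cationic amino acids, Slc7a1 (chromosome 5, 148327410 to 148399904, minus strand) was read at 194, 210.2 and 213 CPM, or 62.1 ± 3.04 TPM, with culture 1 below the other two. Its paralogue Slc7a3 (chromosome X, 101079210 to 101086020, minus strand) had 2, 1 and 1 reads, too few for a ratio. The neutral amino acid exchangers were both detected. Slc1a5, the glutamine exchanger ASCT2 (chromosome 7, 16781340 to 16798274, plus strand), lay at 72.7, 67.6 and 68.5 CPM, or 58.0 ± 2.35 TPM, and Slc1a4, ASCT1 (chromosome 11, 20302180 to 20332713, minus strand), at 32.9, 33.8 and 32.5 CPM, or 29.3 ± 0.75 TPM. By TPM the first was 1.98 ± 0.0989 times the second (2.94 with the longest transcript).

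The sodium-coupled neutral transporters of system A are Slc38a1 and Slc38a2. Slc38a2 (SNAT2, chromosome 15, 96687392 to 96699730, minus strand) was read at 256, 228 and 223 CPM, or 92.8 ± 7.24 TPM, and culture 1 was clearly the highest. Slc38a1 (SNAT1, chromosome 15, 96571418 to 96642913, minus strand) stood at 182, 195 and 186 CPM, or 37.9 ± 1.51 TPM, with culture 2 the highest. Their ratio by TPM was 2.75, 2.28 and 2.33, a mean of 2.45 ± 0.255, and 1.5 with the longest transcript, since the joined exons of Slc38a1 span 17236 bases and its longest transcript 7266. Slc43a1, the leucine facilitator LAT3 (chromosome 2, 84838850 to 84863594, plus strand), lay at 36.2, 31.4 and 29.7 CPM, or 19.8 ± 2.10 TPM. The lowest detected transporter was Slc6a9, the glycine transporter GLYT1 (chromosome 4, 117834506 to 117875198, plus strand), at 19.9, 17.5 and 18.9 CPM, or 12.7 ± 0.799 TPM. It shares 1429 exon bases on the opposite strand with Ccdc24, which had 10, 9 and 4 reads.

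**Figure D2:**
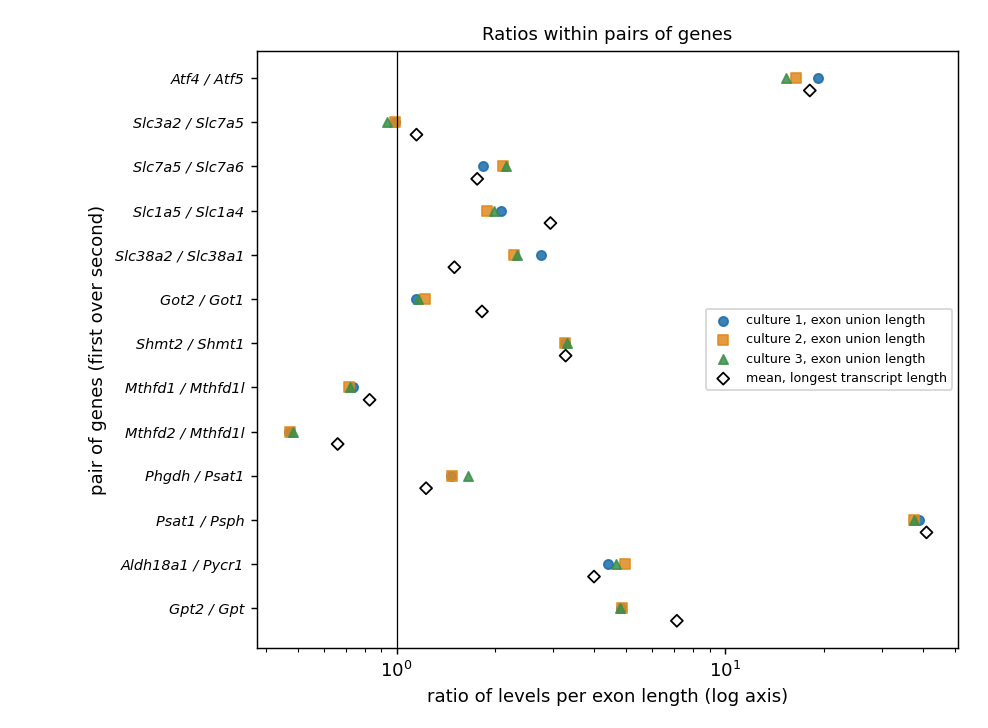
Ratio of levels per exon length within 13 pairs of genes (log axis, first gene over second), 1 filled symbol per culture for joined exon length and an open diamond for the mean with the longest transcript. In 10 pairs the first gene is higher in every culture; Slc3a2 over Slc7a5 lies at 0.970 and crosses 1 with the longest transcript, and the 2 Mthfd1l pairs lie below 1.

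The members differed little between cultures. In bulk samples such as these, fewer cells with a transcript and less of it per cell cannot be told apart. Among the 27 detected members the ratio of the highest to the lowest culture in CPM had a median of 1.074 and ran from 1.010 (Gpt2) to 1.29 (Ddit3), beside a median of 1.090 for all detected genes. Only Ddit3 and Slc43a1 reached a ratio of 1.2, 2 of 27 or 7.41%, beside 21.4% of detected genes. Both were highest in culture 1, and no member was highest in culture 2 or 3 at that ratio, beside 13.5%, 2.04% and 5.93% of detected genes for cultures 1, 2 and 3. With the spread expected from counting removed, the coefficient of variation of the members had a median of 3.04%, beside 3.02% for all 10125 genes with at least 100 reads, and 14 of 27 members lay above the latter. It was highest for Ddit3 (13.5%), Slc43a1 (9.86%) and Slc38a2 (7.43%), the only members above the 75th percentile of those genes. It was 0 for Psph, Gpt2, Got2 and Slc1a4, whose cultures differed by no more than counting noise, as did 25.7% of the genes.

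**Figure D3:**
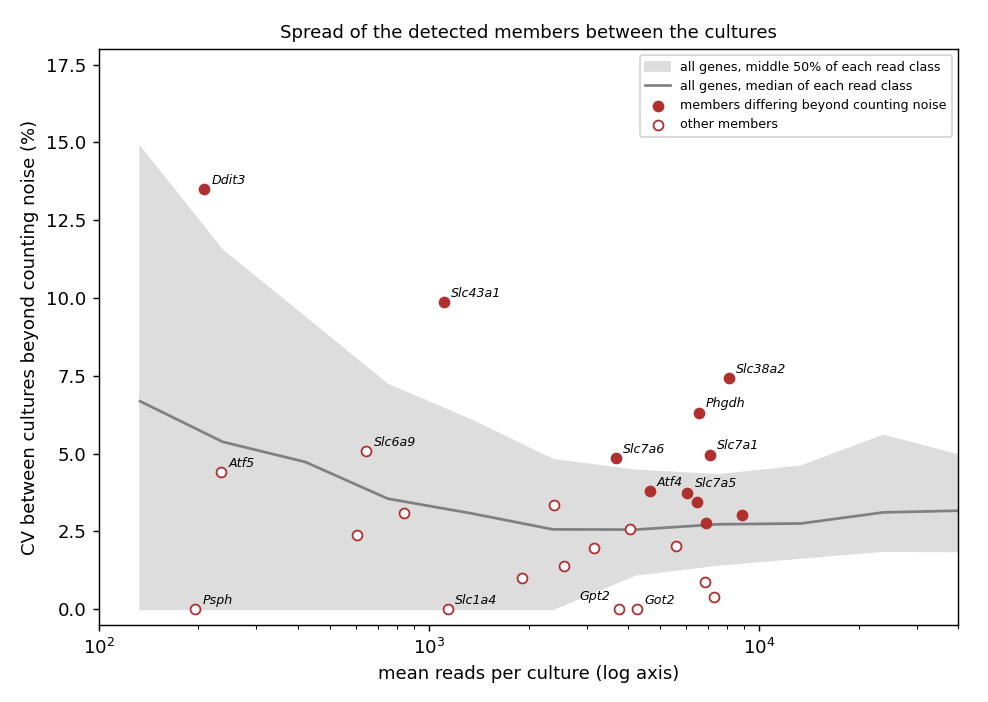
Coefficient of variation between the 3 cultures beyond counting noise (%) against mean reads per culture (log axis) for the 27 detected members, over the median (line) and middle 50% (band) of all genes in the same read class. Ddit3, Slc43a1 and Slc38a2 stand highest, filled points passed the chi-square test, and 4 members lie at 0.

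By a chi-square test for differences beyond Poisson noise, adjusted by the Benjamini-Hochberg method over all 13141 genes tested (threshold 0.05), 11 of the 27 detected members differed between cultures beyond counting noise, 40.7% beside 32.8% of all tested genes and 37.1% of detected genes. Of the 21 members with a mean of at least 1000 reads 10 were called, beside 45.0% of such genes, so the share among members lay near that of other genes of like depth. The test compares these 3 libraries and not conditions.

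Of the called members, 5 were highest in culture 1, 1 in culture 2 and 5 in culture 3. Over all tested genes, 16.6% were called and highest in culture 1, 6.03% in culture 2 and 10.2% in culture 3. The highest culture of each of the 11 was the same under both other scalings tried, trimmed mean of M values (TMM) and median of ratios. Those highest in culture 1 were Slc38a2 (adjusted p = 1.1e-18 by the chi-square test), Slc43a1 (adjusted p = 6.1e-05), Slc7a6 (adjusted p = 5.7e-04), Atf4 (adjusted p = 0.00286) and Ddit3 (adjusted p = 0.0311). These are a pair of stress factors and 3 transporters. Slc38a1 was highest in culture 2 (adjusted p = 0.00121 by the chi-square test). Those highest in culture 3 were Phgdh (adjusted p = 1.7e-11 by the chi-square test), Slc7a1 (adjusted p = 1.7e-07), Slc7a5 (adjusted p = 5.2e-04), Glud1 (adjusted p = 6.0e-04) and Shmt2 (adjusted p = 0.00664), that is 3 enzymes and 2 transporters. All 5 were lowest in culture 1. Transporters were thus called in both directions, with Slc7a6 and Slc7a5, light chains of the same heavy chain, on opposite sides. The Atf4 mRNA was highest in culture 1, in which Phgdh and Shmt2 were lowest. Between cultures 1 and 2 alone Phgdh and Shmt2 did not differ by the chi-square test (adjusted p = 0.236 and 0.898). A relation of Atf4 to them was not tested. The mitochondrial share of reads given above was also highest in culture 1 and lowest in culture 3, and its part in these differences was not tested.

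Most of these calls rested on culture 1, and the share called over all genes also fell without it. Without it the chi-square test, with the same adjustment, kept 2 of 27, Phgdh and Shmt2, beside 11.1% of all tested genes, and the calls of Atf4 (adjusted p = 0.936), Ddit3 (0.997), Glud1 (0.174), Slc7a1 (0.689), Slc7a5 (0.314), Slc7a6 (0.793), Slc38a1 (0.0514), Slc38a2 (0.392) and Slc43a1 (0.491) ended. Without culture 3 the chi-square calls of Phgdh (adjusted p = 0.236), Shmt2 (0.898) and Glud1 (0.122) ended, and without culture 2 that of Slc38a1 (0.327). Without culture 2 Aldh18a1 passed the chi-square test (adjusted p = 0.0279, beside 0.0720 with all cultures). The calls of Atf4 and Ddit3 were also close to the threshold under other scalings. The chi-square call of Ddit3 ended under TMM (adjusted p = 0.0513), median of ratios (0.0523) and with no read minimum (0.0536), and that of Atf4 under median of ratios (0.0544). Under TMM and median of ratios Aldh18a1 (adjusted p = 0.00344 and 0.00505) and Slc3a2 (0.0180 and 0.0115) passed the chi-square test, and Asns did under median of ratios (0.0484).

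**Figure D4:**
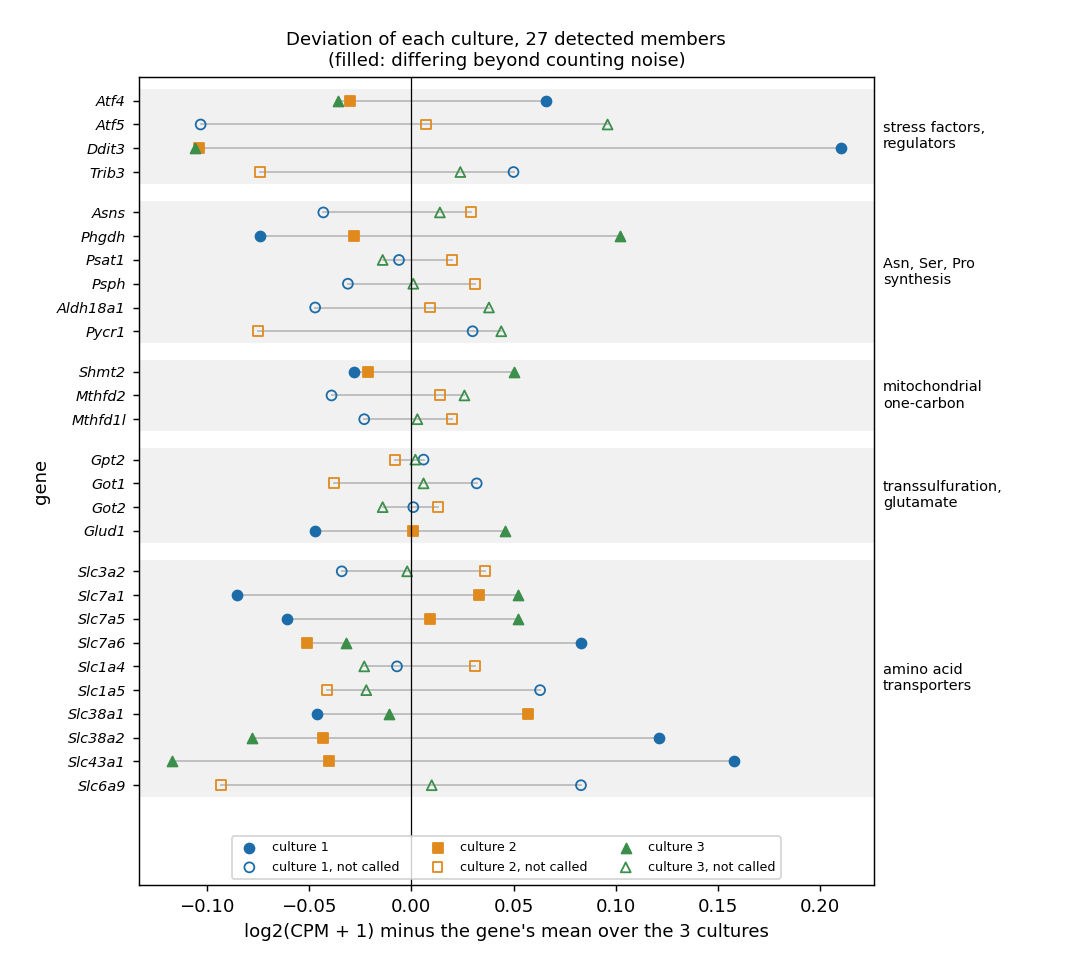
Deviation of each culture from the mean of its gene on the log2(CPM + 1) scale for the 27 detected members, with filled symbols for members called by the chi-square test. Among the called members culture 1 lies farthest to the right for Ddit3, Slc43a1 and Slc38a2. It lies farthest to the left for Slc7a1, Phgdh and Slc7a5. None of the 9 synthesis and one-carbon genes has culture 1 as its highest, and of these only Phgdh and Shmt2 were called.

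Counting all detected members, called or not, 10 were highest in culture 1, 8 in culture 2 and 9 in culture 3, beside 41.5%, 27.3% and 31.2% of detected genes. The lowest culture was culture 1 for 13, culture 2 for 7 and culture 3 for 7, beside 34.7%, 26.2% and 39.1%. The order is given by role, with the synthesis and one-carbon roles pooled, which was not planned. Of the 9 detected synthesis and one-carbon members, 0 were highest in culture 1 and 7 were lowest there, beside 41.5% and 34.7% of detected genes. Under both other scalings 0 were highest and 8 lowest in culture 1, beside 34.5% and 43.7% of detected genes (TMM) or 34.0% and 44.1% (median of ratios). Of the 9, only Phgdh and Shmt2 differed beyond counting noise by the chi-square test, so for the other 7 the order of the cultures is a description. The 10 detected transporters were split, 5 highest in culture 1, 3 in culture 2 and 2 in culture 3. Of the 4 detected stress factors and regulators 3 were highest in culture 1, and of the 4 glutamate enzymes 2 were. Among these, Trib3, Gpt2 and Got1 were highest in culture 3 under both other scalings.

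The members' promoters were searched for the core of the C/EBP-ATF response element, the composite site that ATF4 binds with C/EBP proteins, spelled TGATGNAA or, on the other strand, TTNCATCA. RefSeq promoters (GRCm38.p6, 250 bases before to 50 after the start) were matched for 27 of 33 members; Aldh1l2, Cth, Slc7a3, Slc7a5, Slc1a5 and Slc38a1 had no entry. The core was found in 7 of the 27 (25.9%), beside 4.51% of 27025 genes: Trib3, Chac1, Vldlr, Asns, Pycr1, Got1 and Slc1a4. With the free base set to C (TGATGCAA or TTGCATCA), 5 of 27 (18.5%) held it, beside 1.03%. Genes known to be controlled by ATF4 were put on the list by choice, so this excess is not a result of these data. Those printed here show a match before the RefSeq start in 2 members that had no read and in 3 that were expressed. Each is read 5′ to 3′ on the strand of its gene, and the capitals mark the match.
Chac1: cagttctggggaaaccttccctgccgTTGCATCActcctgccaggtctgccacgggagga
Vldlr: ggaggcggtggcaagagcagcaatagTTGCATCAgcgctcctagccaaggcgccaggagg
Pycr1: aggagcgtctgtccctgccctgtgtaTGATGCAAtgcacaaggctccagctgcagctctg
Got1: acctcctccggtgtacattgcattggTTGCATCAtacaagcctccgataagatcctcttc
Asns: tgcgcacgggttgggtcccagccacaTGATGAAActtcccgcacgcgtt

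The Chac1 stretch lies on chromosome 2 from 119351023 to 119351082 (plus strand), with the match beginning 193 bases before the start, and the Vldlr stretch on chromosome 19 from 27216794 to 27216853 (plus strand), 200 bases before. The Pycr1 stretch lies on chromosome 11 from 120643818 to 120643877 (minus strand), 103 bases before, and the Got1 stretch on chromosome 19 from 43524674 to 43524733 (minus strand), 102 bases before. That of Asns lies on chromosome 6 from 7693210 to 7693258 (minus strand), 23 bases before. These distances are from RefSeq starts, which are not those of the GENCODE gene ranges given for the members. By the GENCODE ranges the matches of Asns (7693225 to 7693232) and Vldlr (27216820 to 27216827, gene from 27216484) lie inside the gene. Those of Chac1, Pycr1 and Got1 lie before the gene by either source. The core with C as its free base, on one strand or the other, thus stood before the RefSeq start of Got1, at 76.1 TPM, and Pycr1, at 21.5 TPM. It also stood before the RefSeq start of Chac1 and Vldlr, which had no read. In Slc1a4, at 29.3 TPM, it began 4 bases before that start and ran past it. Any link between its distance from the start and the level of the gene was not tested. Of the 24 detected members with a promoter entry 5 held the core, and of the 3 others 2. Of the 11 members that differed between cultures, Slc7a5 and Slc38a1 had no entry and the others did not hold it. The core was held by 25.9% of matched members and 4.51% of genes, so its lack in these few allows no conclusion. A match describes letters in this window; binding was not measured.

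Of the other genes of these pathways, 103 in 4 lists, 71 (68.9%) were detected, and 26 of the 75 tested (34.7%) differed between cultures by the chi-square test, beside 32.8% of all tested genes. Without culture 1, 8 of them were called, beside 11.1% of all tested genes, and without culture 3, 17, beside 20.2%. In the eIF2 branch and stress list 19 of 24 were detected, and all 4 eIF2 kinase genes were among them, from 23.3 ± 0.569 TPM (Eif2ak3, the PERK gene) to 51.4 ± 1.58 TPM (Eif2ak2, the PKR gene), both named after their values were seen. Ddit4, an inhibitor of mTORC1 signalling, was the highest of the list at 355 ± 38.7 TPM, followed by Eif2b5, a subunit of the exchange factor of eIF2 (174 ± 3.50 TPM), and Sesn2, a sensor protein of leucine (137 ± 1.62 TPM). Atf3 and Stc2 had no read and Gdf15 had 2, 2 and 2 reads. In this list 7 of 20 tested genes differed between cultures (3 without culture 1). Ddit4 was read at 162, 174 and 202 CPM (adjusted p = 8.7e-35 by the chi-square test). Cebpb, which encodes a C/EBP partner of ATF4 and is named here after its values were seen, was read at 12.5, 15.7 and 22.7 CPM (adjusted p = 3.8e-23 by the same chi-square test, a ratio of 1.82). Both calls held without any 1 culture, and both genes were highest in culture 3, whereas Atf4 and Ddit3 were highest in culture 1.

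Of 21 other folate, one-carbon and methionine genes 18 were detected, and 9 of 19 tested differed between cultures (2 without culture 1). The highest were Mat2a, which makes S-adenosylmethionine (129.8 ± 27.1 TPM), Mthfd1 (113 ± 0.770 TPM) and Sfxn1, a mitochondrial serine carrier (111 ± 2.62 TPM). Mat2a was read at 207, 151 and 143 CPM, far higher in culture 1 (adjusted p = 1.1e-102 by the chi-square test, and 0.0521 without culture 1), while Mthfd1 stood at 145 CPM in each culture. Gldc, of the glycine cleavage system, and Mthfd2l were not detected. Of 24 other enzymes 17 were detected, led by Oat (209.8 ± 4.66 TPM), Odc1 (168 ± 1.64 TPM) and Gclm (131 ± 2.90 TPM), and 5 of 18 tested differed (2 without culture 1 or 3, 8 under both other scalings). Bcat1 had 0, 2 and 2 reads, and Arg1 had none. Of 34 other transporters 17 were detected, 50.0% beside 10 of 11 among the members. They were led by Slc38a10 (86.3 ± 1.34 TPM) and the aspartate and glutamate carriers of mitochondria Slc25a12 (64.0 ± 1.63 TPM) and Slc25a13 (62.1 ± 0.909 TPM), all below the level of Slc3a2 and Slc7a5. In this list 5 of 18 tested genes differed (1 without culture 1). With culture 1 highest, 7 of the 17 detected genes reached a ratio of 1.2 (41.2%, beside 13.5% of detected genes), where 1 of 10 member transporters did. Of these 7, Slc7a7 (adjusted p = 0.305 by the chi-square test), Slc38a7 (0.170) and Slc66a1 (0.0512) did not differ beyond counting noise, and the others did. The lists also differ in level, with medians of 16.4 TPM for the 17 and 60.1 TPM for the 10 detected member transporters.

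**Figure D5:**
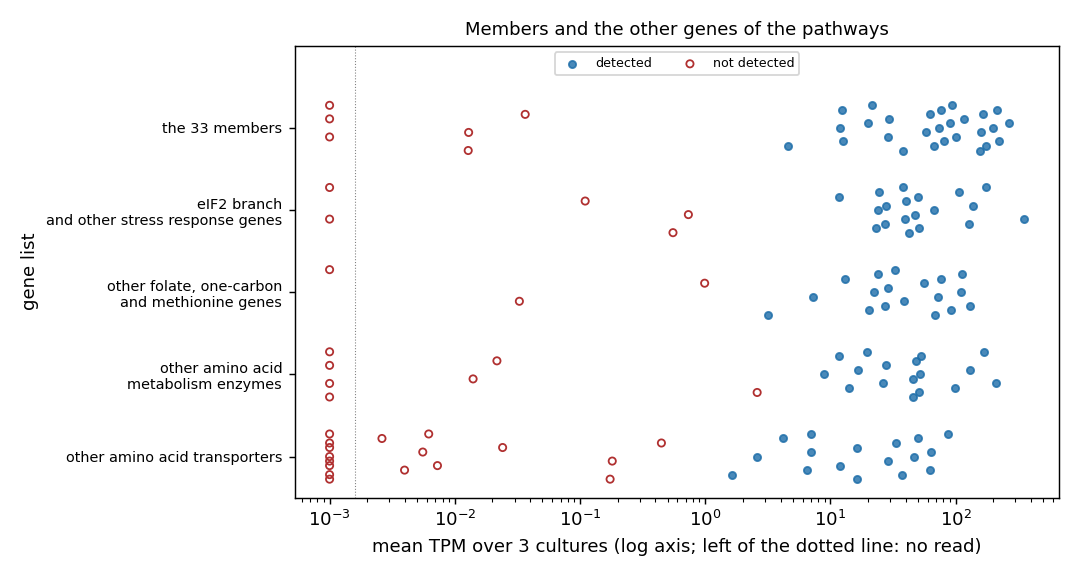
Mean TPM over the 3 cultures (log axis) of the 33 members and of the 4 lists of other pathway genes, 1 point per gene, with open points for genes not detected and points left of the dotted line for genes without a read. The members reach 266 TPM and the highest other gene, Ddit4, 355 TPM; 17 of the 34 other transporters are open.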

How the data were processed

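Polyadenylated RNA of 3 Ba/F3 cultures was sequenced from libraries of a strand-marking kit as 50-base single-end reads, per the series' design text. Per that text and the submitters' processing notes, the authors aligned reads to GRCm38 with HISAT2 and counted them with an in-house program. For versions, annotation release, strand setting and reads with several matches, the sources used here give nothing. The deposited values are log2(reads per 10000000 + 1), as the linear values of each column sum to 10000000, and whole reads were recovered from 100% of them within a tolerance of 0.01. In the 23001 rows with reads, identifier and symbol named the same gene in 0. Cultures 1 and 2 were read by identifier, and culture 3 by symbol and coordinates, through GENCODE M21: 54879 rows matched by exact coordinates, 361 by a symbol naming 1 gene and 246 not.

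Detection, the chi-square test (genes with a mean of at least 10 reads) and the ratios were computed in Python 3.11.15 with scipy 1.17.1. Each adjusted p compares single libraries. The planned test of the 17 pairs, adjusted over them alone, is not reported. The test and both scalings were tried on simulated reads with Poisson noise alone, which cannot show how they handle further spread between cultures. In the simulation for the scalings no gene was changed between libraries. Copies at least 95% identical over 100 bases were sought with blastn 2.17.0. Members, lists, pairs and naming rules were chosen with earlier results of these data known. All members were named, and from each other list the 3 highest per length, up to 3 not detected and those in pairs. Ddit3 names 2 genes, and the one with reads was used. Of the upstream ATGs, those of the principal annotated transcript were counted. Alternatives were detection at 0.5 and 5 CPM or in at least 1 culture, 2 other scalings, the longest transcript as length, other read minimums, pseudocounts and ratios, rows as deposited, narrower motif searches and leaving out each culture.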

Additional observations from a re-analysis of the deposited data

How the results depend on the processing

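The count of 27 detected members was the same at 0.5 and 5 CPM, in at least 1 culture and without any culture. The median over members was 74.4 CPM and 72.0 with culture 3 on the rows as deposited, and 62.1 TPM and 69.6 with the longest transcript. The 11 members differing between cultures became 2, 11 and 8 without cultures 1, 2 and 3, beside 11.1%, 29.5% and 20.2% of all tested genes. They became 12 under both other scalings (beside 34.3%). On the rows as deposited 14 passed (beside 30.3%), with Asns, Psat1 and Mthfd2 added. In those rows identifier and symbol name different genes, so the culture 3 reads set beside a member are those of another gene by symbol. That setting, which also gave the 72.0 CPM, shows the effect of the row order and is no check on the members. Members highest in culture 1 at a ratio of 1.2 numbered 2, and 1 under trimmed mean of M values, 1 under median of ratios, 0 at a ratio of 1.5 and 1 to 2 with another culture left out. With no ratio minimum 10, 8 and 9 members were highest in cultures 1, 2 and 3, and trimmed mean of M values gave 1 in culture 3 at a ratio of 1.2, where it had been 0. Of the 13 pair ratios, 1 turned with the longest transcript (Slc3a2 over Slc7a5, 0.970 to 1.15). The reads were the same for both ratios, and only the lengths differed (Slc3a2 3529 and 2813 bases, Slc7a5 3708 and 3517 bases). The cause of the differences between cultures was not tested. No paired analysis was possible because the samples form 1 group. Members without a read were not detectable at this depth, which does not show that they are absent.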
